A study of Mus musculus with 18 samples.

Results

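Hearts of mice with a myocardial infarction were profiled by messenger RNA sequencing, and the comparison described here set hearts taken 8 days after aNMP-2b against hearts taken 1 day after it. The later group, labelled aNMP-2ab0, received aNMP-2a on day 3 after infarction, aNMP-2b on day 7 and PBS on day 14, and its tissue was taken on day 15 (3 libraries). The earlier group, labelled aNMP-2ab, received aNMP-2a on day 3 and aNMP-2b on day 7, and its tissue was taken on day 8 (3 libraries). These are 6 of the 18 libraries of the series. A further day 8 group, labelled aNMP-2a0 (3 libraries), received aNMP-2a on day 3 and PBS on day 7, and its values are given for context. Every heart in these groups was infarcted and had received aNMP-2a, which the series places under the design of nanomedicine that mimics the heart's own immune repair. The labels name the tissue as heart and do not say which zone was taken, nor the strain, age or sex of the mice. Day of tissue, time since aNMP-2b and the kind of last injection differed together between the groups, as did the deposited table that held them, and they cannot be told apart. The libraries were chosen by these labels, and 12607 of 18414 genes had at least 1 FPKM in 3 or more of the 6 libraries and were tested. FPKM are fragment numbers scaled to transcript length and to the sequencing yield of the library.

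Healing of an infarct proceeds from a wave of neutrophils and inflammatory monocytes, through macrophage and lymphocyte phases and the laying down of collagen by activated fibroblasts, to a scar with few cells. Interferons, made by infected or injured tissue and by lymphocytes, act on the interferon-stimulated response element (ISRE), a short promoter sequence that drives antiviral, GTPase and antigen-presentation genes. Cytotoxic lymphocytes (CD8 T cells and natural killer cells) kill by releasing perforin and granzymes, whereas neutrophils carry a separate set of serine proteases that are transcribed mainly in their bone marrow precursors.

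The promoters of 4 genes that the results turn on are shown first: Ifit1 for antiviral genes, Irgm1 for GTPases induced by interferon gamma, H2-T22 for class I antigen presentation, and Gzma, one of the genes that passed the test. Each runs 5′ to 3′ on the gene's strand, from 250 bases before to 50 bases after the annotated start (RefSeq, build GRCm38.p6), and capitals mark matches to GAAANNGAAA, the ISRE core, on either strand. The Ifit1 promoter lies at chr19:34640639-34640938 (plus strand), the Irgm1 promoter at chr11:48871371-48871670 (minus strand), the H2-T22 promoter at chr17:36042693-36042992 (minus strand) and the Gzma promoter at chr13:113100932-113101231 (minus strand).
Ifit1: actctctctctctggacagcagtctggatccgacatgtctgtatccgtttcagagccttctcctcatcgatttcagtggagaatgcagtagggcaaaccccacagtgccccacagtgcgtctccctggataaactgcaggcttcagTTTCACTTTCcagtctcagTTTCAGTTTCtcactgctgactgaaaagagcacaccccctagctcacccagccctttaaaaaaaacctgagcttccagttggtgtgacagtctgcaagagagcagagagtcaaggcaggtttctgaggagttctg
Irgm1: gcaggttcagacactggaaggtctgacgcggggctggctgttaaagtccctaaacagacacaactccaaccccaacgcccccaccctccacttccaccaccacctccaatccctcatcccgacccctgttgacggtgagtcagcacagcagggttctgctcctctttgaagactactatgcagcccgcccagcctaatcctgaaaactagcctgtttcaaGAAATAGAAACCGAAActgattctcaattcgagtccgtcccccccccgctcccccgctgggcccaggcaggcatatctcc
H2-T22: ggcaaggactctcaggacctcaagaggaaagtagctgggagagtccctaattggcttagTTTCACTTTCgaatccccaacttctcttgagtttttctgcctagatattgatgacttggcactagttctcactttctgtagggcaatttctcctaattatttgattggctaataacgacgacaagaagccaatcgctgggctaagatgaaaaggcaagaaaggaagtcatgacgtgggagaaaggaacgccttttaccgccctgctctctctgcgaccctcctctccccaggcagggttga
Gzma: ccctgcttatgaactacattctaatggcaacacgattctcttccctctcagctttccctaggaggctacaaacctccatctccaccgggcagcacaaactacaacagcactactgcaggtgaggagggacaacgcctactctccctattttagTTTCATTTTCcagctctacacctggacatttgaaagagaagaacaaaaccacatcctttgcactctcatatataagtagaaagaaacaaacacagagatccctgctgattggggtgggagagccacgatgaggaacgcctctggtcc
In Ifit1 the 2 matches began at -104 and -85 from the start, and in Irgm1 2 overlapping matches began at -30 and -24. H2-T22 held 1 match at -191 and Gzma held 1 at -97. Among all tested genes with a promoter in the table, 401 of 10069 (3.98%) held the motif. It was present in 12 of 21 (57.1%) promoters of the list of interferon-stimulated genes, in 11 of 15 (73.3%) of the list of interferon gamma GTPases and CXCL chemokines, in 5 of 18 (27.8%) of the class I list and in 1 of 18 (5.56%) of the T and NK cell list. Among tested genes with a promoter whose day 15 values lay below every day 8 value, 143 of 1675 (8.54%) held the ISRE core. Among those that lay above it was 26 of 949 (2.74%). These sets were picked by the same values and include members of the interferon lists, so the contrast is not a separate result. A match describes the letters in these windows and was not tested as a binding site.

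Summed FPKM of the 6 libraries ran from 710100 to 777510, and 12218 to 12775 genes reached 1 FPKM. Correlation between libraries (Pearson r of log2 values, across genes, which are not independent) was 0.955 to 0.982 within groups and 0.936 to 0.975 between them. With no counts in the files, depth is unknown and values carry no counting interval. Markers of heart muscle were high in every library: Myh6, the main adult mouse myosin, had 5072, 5548 and 4016 FPKM at day 15, against 4154, 2032 and 2498 FPKM at day 8. Atrial markers differed between libraries within both groups. Myl7, an atrial light chain, had 2.53, 85.1 and 930.1 FPKM at day 15, against 2097, 382 and 1.08 FPKM at day 8. Only 1 library of each group, aNMP-2ab0 replicate 1 and aNMP-2ab replicate 3, was below 50 FPKM of Myl7. The atrial list (11 of 12 members tested) summed to 727, 647 and 4510 FPKM at day 15, against 9229, 9467 and 852 FPKM at day 8. Nppa, a natriuretic peptide that ventricles also make under wall stress, took 664, 426 and 2499 FPKM of these sums at day 15, against 5313, 8617 and 791 FPKM at day 8. Without Nppa the list summed to 63.1, 221 and 2011 FPKM at day 15, against 3915, 850 and 61.9 FPKM at day 8. Scgb1a1, made by airway club cells, was present in a few libraries, at 0, 0 and 45.5 FPKM at day 15, against 496, 1.91 and 0.36 FPKM at day 8. Among aNMP-2ab libraries, replicate 2 had the highest collagen sums and replicate 3 the highest sums of interferon gamma genes. The parts these differences play in the results were not tested, apart from the fits without single libraries or with an atrial covariate that are given beside them.

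Between day 15 and day 8 the genes that passed were Gzma and Elane, both lower at day 15. Gzma encodes granzyme A, a protease of killer lymphocyte granules, and Elane encodes neutrophil elastase. Gzma had 6.13, 3.79 and 4.45 FPKM in day 15 hearts, against 30.2, 37.8 and 44.2 FPKM in day 8 hearts. The groups lay far apart, and the aNMP-2a0 hearts of day 8, at 5.96, 5.22 and 5.34 FPKM, lay within the day 15 range. On the log2(FPKM + 0.5) scale used for all fold changes, which understates the change of low genes, Gzma fell by 2.85 ± 0.21 (SE, limma, adjusted p = 0.0259). It lies on chromosome 13 at 113093824 to 113100981 (GRCm38.p6). Elane had 0.11, 0 and 0.22 FPKM at day 15, against 3.52, 4.65 and 3.88 FPKM at day 8, with no overlap, and 0.9, 0 and 0.11 FPKM in the aNMP-2a0 hearts. Its log2 fold change was -2.90 ± 0.21 (limma, adjusted p = 0.0259), and it lies on chromosome 10 at 79886312 to 79888216, next to the neutrophil protease gene Prtn3 (79879667 to 79883174). Elane met the expression filter through its day 8 libraries alone, so it had to differ once tested. With no filter the adjusted p was 0.06 for Elane and for Gzma (limma), and neither passed. In bulk tissue, fewer cells of a type and less RNA per cell cannot be told apart.

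These 2 genes were 0.0159% of those tested, and 0 genes passed in the higher direction. At an unadjusted limma p under 0.05, 2349 genes (18.6%) were counted, 681 higher (5.4%) and 1668 lower (13.2%). Genes whose 3 day 15 values all lay above the 3 day 8 values numbered 1148 (9.11%), and 2127 (16.9%) lay below. A fold of at least 2 was reached by 27 genes upward and by 559 downward. The median log2 fold change of all tested genes was -0.07 and 59.8% were negative. That centre depended on scaling: it was -0.11 (66.9% negative) when libraries were divided by their FPKM sum, 0.01 (48.6%) with upper quartile scaling, 0.00 (49.5%) with median ratios and 0.06 (40.7%) after quantile normalization. With 1 library left out at a time, the adjusted p of Gzma (limma) ranged from 0.0439 without aNMP-2ab0 replicate 1 to 0.268 without aNMP-2ab replicate 2, at log2 fold changes of -3.02 to -2.71. That of Elane ranged from 0.0608 to 0.113 without a day 15 library, and without a day 8 library Elane did not meet the expression filter. With the atrial score (mean log2 level of atrial marker genes) as a covariate, both calls were lost, at adjusted p of 0.0574 for Gzma and 0.119 for Elane (limma), while their log2 fold changes were -2.92 and -2.88.

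**Figure D1:**
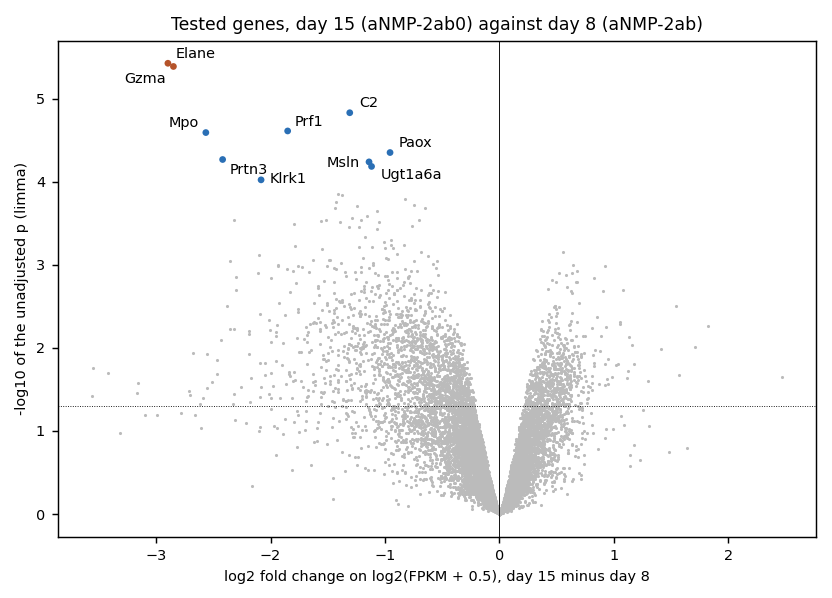
Log2 fold change (day 15 minus day 8, horizontal) against -log10 of the unadjusted limma p (vertical) for the 12607 tested genes. The 10 genes with the smallest p are named, with the 2 that passed in orange and the other 8 in blue; all 10 lie on the negative side, and the dotted line marks an unadjusted p of 0.05.

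Several genes of killer lymphocytes had lower values at day 15 beyond Gzma, though no other member of their list passed. Prf1, the perforin that opens the target membrane, had 0.6, 0.48 and 0.51 FPKM at day 15, against 2.6, 3.42 and 3.7 FPKM at day 8, a log2 fold change of -1.85 ± 0.18 (limma, adjusted p = 0.0647). Klrk1, the activating NK receptor NKG2D, had 1.25, 0.76 and 0.4 FPKM at day 15, against 4.87, 4.86 and 4.74 FPKM at day 8 (-2.08 ± 0.25, limma, adjusted p = 0.12). In both genes the groups did not overlap, and Prf1 met the expression filter through day 8 alone. Gzmb, a second granzyme, had a log2 fold change of -2.30, Nkg7, a granule membrane protein, -1.93, and Xcl1, a chemokine that attracts dendritic cells, -1.87. Among T cell genes, Cd3e, a chain of the receptor complex, had 1.86, 0.48 and 0.94 FPKM at day 15, against 4.01, 3.01 and 1.54 FPKM at day 8 (-1.09), and Cd4, the helper T cell coreceptor, had a log2 fold change of -0.90, both with overlap. Ctla4, a checkpoint receptor of activated and regulatory T cells, was the 1 member of the list with a positive value (0.50), and its groups overlapped. Of 31 genes listed for T and NK cells, 24 were tested, 1 passed (Gzma), 23 had a negative fold change, 18 had an unadjusted p under 0.05 in the lower direction, and 14 lay wholly below the day 8 values (16.9% of all tested genes did so). Their median log2 fold change was -1.28, beside -0.07 over all genes, and -0.37 between the 1 library of each group that was low in Myl7. Since 4 of the 24 (Prf1, Ncr1, Klrb1c and Tbx21) met the filter through day 8 alone and had to differ, these counts and medians do not describe the whole list. Gzmm, granzyme M, which the list does not hold and which was picked after its values were seen, lay the other way, with 8.3, 10.8 and 8.55 FPKM at day 15, against 5.49, 2.68 and 4.83 FPKM at day 8 and no overlap (1.05 ± 0.25, limma, adjusted p = 0.19).

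Among granule genes of neutrophil precursors, no member other than Elane passed. Mpo, the myeloperoxidase that makes hypochlorous acid, had 0.16, 0 and 0 FPKM at day 15, against 1.96, 3.14 and 3.32 FPKM at day 8 (-2.57 ± 0.25, limma, adjusted p = 0.0647). Prtn3, proteinase 3, had 1.23, 0.41 and 0.51 FPKM at day 15, against 5.92, 6.32 and 5.05 FPKM at day 8 (-2.42 ± 0.26, limma, adjusted p = 0.0911). Levels of both were low even at day 8, the groups stood apart for each, and Mpo, like Elane, met the expression filter through day 8 alone. Camp, the cathelicidin of later granules, spread more widely, with 8.95, 0 and 0.22 FPKM at day 15, against 29.9, 20.1 and 8.22 FPKM at day 8, and the groups overlapped. Of 11 listed genes 7 were tested, all 7 were negative with an unadjusted p under 0.05, 5 did not overlap, 1 passed (Elane), and the median was -2.57. Since 2 of the 7 met the filter through day 8 alone and had to differ, these counts and the median do not describe the whole list. Genes of mature neutrophils varied more within groups: S100a8, a calcium-binding alarmin, had 163, 4.23 and 61.6 FPKM at day 15, against 426, 159 and 229.6 FPKM at day 8, and the groups overlapped. Of the 15 mature neutrophil genes tested, 0 passed in limma, 3 had an unadjusted p under 0.05 (13.2% of all tested genes did so in this direction), and 3 lay wholly below day 8 (16.9% of all tested genes). The 3 with an unadjusted p under 0.05 were Camp, Ngp and Ltf, which the precursor list also holds. The median of the 15 genes, -1.23, became -0.39 without aNMP-2ab0 replicate 2, whose sum over the list was 31.7 FPKM, the lowest of the 6 libraries.

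**Figure D2:**
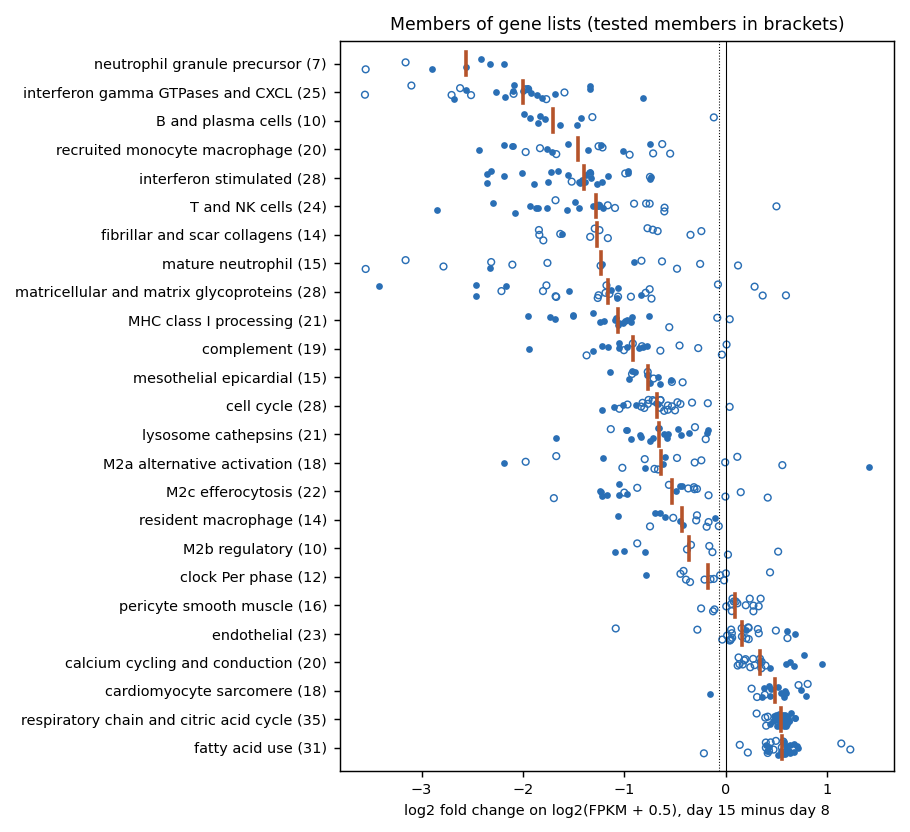
Log2 fold change (day 15 minus day 8) of each tested member of 25 gene lists. Filled points are genes whose groups did not overlap, open points those that overlapped, orange bars are list medians and the dotted line is the median of all genes (-0.07); immune and collagen lists lie at the negative end, where some low genes met the filter through day 8 alone (among them 2 of 7 neutrophil granule genes, 4 of 24 T and NK cell genes and 2 of 10 B cell genes), and muscle and mitochondrial lists at the positive end, with medians up to 0.55.

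Interferon-stimulated genes had negative fold changes in 28 of 28 tested members, where 59.8% of all tested genes were negative. Of the 28, 24 lay wholly below day 8, beside 16.9% of all tested genes, and 0 passed in limma. An unadjusted limma p under 0.05 was reached by 24, beside 13.2% of all tested genes in this direction. Irf7, the transcription factor that amplifies type I interferon, had 52.7, 31.6 and 76.8 FPKM at day 15, against 177, 239 and 417 FPKM at day 8 (-2.36 ± 0.41, limma, adjusted p = 0.177). Ifit1, which binds viral RNA and carries the paired motifs shown above, had 9.45, 5.49 and 12.3 FPKM at day 15, against 20.4, 33.3 and 70.1 FPKM at day 8 (-2.01 ± 0.48, limma, adjusted p = 0.19). For both genes replicate 3 was the highest of the day 8 libraries, and the lowest day 8 value still exceeded all day 15 values. Xaf1, a proapoptotic interferon target, had 14.8, 13.1 and 15.9 FPKM at day 15, against 38.2, 37.6 and 83.3 FPKM at day 8 (-1.72 ± 0.31). The list summed to 937, 672 and 1766 FPKM at day 15, against 2090, 2916 and 4830 FPKM at day 8, and its median was -1.40. When each library was left out in turn, the median lay between -1.76 and -0.92, with the weakest value without aNMP-2ab replicate 3.

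Genes induced mainly by interferon gamma also had lower values at day 15, and they spread widely among the day 8 hearts. Irgm1, an immunity-related GTPase, had 57.5, 33.3 and 40.4 FPKM at day 15, against 216, 92.1 and 818 FPKM at day 8 (-2.56 ± 0.74). Gbp3, a guanylate-binding GTPase, had 29.7, 21 and 22.7 FPKM at day 15, against 78.3, 50.01 and 218 FPKM at day 8 (-1.95 ± 0.51, limma, adjusted p = 0.19). Replicate 3 of the day 8 group was well above its partners in both, while no day 15 value reached the day 8 range. Cxcl9, which draws CXCR3-bearing lymphocytes, had 17.4, 6.5 and 4.46 FPKM at day 15, against 29.2, 16.1 and 292 FPKM at day 8, and its groups overlapped. All 25 tested members of the list were negative, 15 did not overlap, 18 had an unadjusted p under 0.05 and 0 passed. Over all tested genes, 16.9% lay wholly lower and 13.2% were lower at an unadjusted limma p under 0.05. The median of -1.9996 became -1.21 without aNMP-2ab replicate 3, whose sum over the list was 10510 FPKM, against 2730 and 1378 FPKM in replicates 1 and 2.

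Genes of antigen presentation on MHC class I had lower values at day 15 in nearly every member. H2-D1, a classical class I heavy chain, had 881, 611 and 872 FPKM at day 15, against 1627, 1514 and 1509 FPKM at day 8 (-0.99 ± 0.17, limma, adjusted p = 0.177). B2m, the light chain common to class I molecules, had 2082, 1366 and 1852 FPKM at day 15, against 3746, 3172 and 4280.2 FPKM at day 8 (-1.09 ± 0.20). Every day 8 library stood above every day 15 library for both. H2-T22, a nonclassical class I chain, had 85.8, 56.4 and 64.6 FPKM at day 15, against 163, 152 and 169 FPKM at day 8 (-1.24 ± 0.17, limma, adjusted p = 0.138). Psmb8, a subunit of the immunoproteasome, had 95.2, 58.5 and 70.9 FPKM at day 15, against 213, 136 and 314 FPKM at day 8 (-1.50 ± 0.33). Of 21 members, all tested, 18 lay wholly below day 8, beside 16.9% of all tested genes, and 0 passed. An unadjusted limma p under 0.05 was found for 18, beside 13.2% of all tested genes in this direction. The exceptions by sign or size were chaperones shared with general protein folding, Calr at 0.04 and Pdia3 at -0.08. The median of -1.06 lay between -1.24 and -0.92 when single libraries were left out. Class I genes and guanylate-binding GTPases have near-identical copies, and how reads were divided between copies was not examined.

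The aNMP-2a0 hearts place these values beside a second group of day 8, and that comparison shares the aNMP-2ab libraries with the one above. The class I list summed to 5897, 4140 and 5676 FPKM at day 15, 10480, 8634 and 12110 FPKM in aNMP-2ab hearts and 5291, 3925 and 4374 FPKM in aNMP-2a0 hearts. The interferon-stimulated list summed to 896, 764 and 887 FPKM in aNMP-2a0 hearts. In aNMP-2ab hearts 27 of 28 interferon-stimulated genes and 19 of 21 class I genes lay wholly above the aNMP-2a0 values, where 6.89% of all these genes did so. Between the day 15 hearts and the aNMP-2a0 hearts, all 28 interferon-stimulated and all 21 class I genes overlapped, where 3.27% of all genes lay wholly higher at day 15 and 9% wholly lower. For Irf7 the aNMP-2a0 values were 53.3, 37.6 and 48.2 FPKM, and for H2-D1 854, 645 and 645 FPKM. Not every gene followed this pattern. For Mrc1, the macrophage mannose receptor, aNMP-2a0 values were 26, 21.1 and 19 FPKM, above all day 15 values and overlapping aNMP-2ab values. The same held for Postn, a matrix gene, at 792, 138 and 156 FPKM. Both are examples chosen after their values were seen. In limma, 1 of 12711 genes (0.00787%) passed between the 2 day 8 groups, which was Gzma, at a log2 fold change of 2.64 ± 0.16 (adjusted p = 0.0156), and 989 (7.78%) had an unadjusted p under 0.05. Without aNMP-2a0 replicate 1, 274 genes passed as higher.

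**Figure D3:**
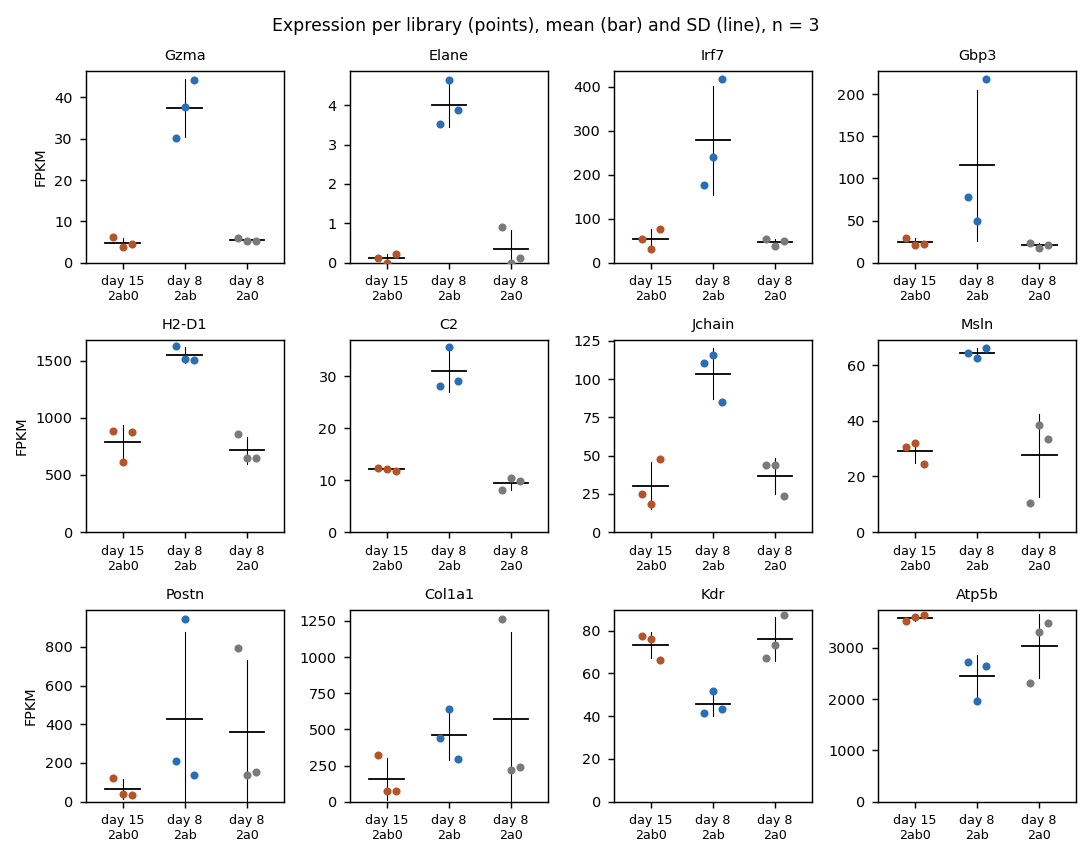
FPKM of 12 genes in each library of the day 15 group (aNMP-2ab0, left), the day 8 group (aNMP-2ab, middle) and the second day 8 group (aNMP-2a0, right), with mean and SD (n = 3). In the first 8 panels all 3 day 15 values lie below all 3 aNMP-2ab values, as for Gzma at 6.13, 3.79 and 4.45 FPKM, against 30.2, 37.8 and 44.2 FPKM, whereas Kdr and Atp5b lie above and Col1a1 overlaps.

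Complement genes were mostly negative as well. C2, the protease of the classical and lectin pathways, had 12.4, 12.2 and 11.9 FPKM at day 15, against 28.1, 35.6 and 29.2 FPKM at day 8 (-1.31 ± 0.12, limma, adjusted p = 0.0622), and 8.04, 10.4 and 9.8 FPKM in aNMP-2a0 hearts. Day 15 values of C2 spread over less than 1 FPKM and lay below every aNMP-2ab value. Cfb, its counterpart in the alternative pathway, had 32.8, 11 and 42.8 FPKM at day 15, against 86.5, 92 and 117 FPKM at day 8 (-1.94 ± 0.47). C1qa, a chain of the initiating complex made by macrophages, had a log2 fold change of -1.05, and C3, the central component, -0.83 with overlapping groups. Of 19 tested members 18 were negative, 10 did not overlap, 10 had an unadjusted p under 0.05, 0 passed, and the median was -0.92. Over all tested genes, 16.9% lay wholly lower, 9.11% lay wholly higher and 18.6% had an unadjusted limma p under 0.05.

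Markers of recruited monocytes and macrophages were all negative at day 15, in 20 of 20 tested members, and 11 did not overlap (0 passed in limma, 15 had an unadjusted p under 0.05). Among all tested genes 16.9% lay wholly lower, and 13.2% were lower at an unadjusted limma p under 0.05. The same shares apply beside the other lists of this paragraph. Ly6c2, the marker of inflammatory monocytes, had 12.9, 4.38 and 11.9 FPKM at day 15, against 32.4, 43.6 and 44.2 FPKM at day 8 (-2.11 ± 0.39, limma, adjusted p = 0.177). Cd68, a lysosomal glycoprotein of macrophages, had 43.8, 20.5 and 37.5 FPKM at day 15, against 84.2, 101 and 68.1 FPKM at day 8 (-1.36 ± 0.30). Neither gene overlapped between the groups, and aNMP-2ab0 replicate 2 was lowest in both. The list median was -1.46, and -1.05 without that library. Resident macrophage markers had a median of -0.44 over 14 genes, of which 7 lay wholly below day 8, 6 had an unadjusted p under 0.05 and 0 passed. Mrc1, the mannose receptor, had 17.7, 12 and 17.1 FPKM at day 15, against 24.4, 24.2 and 21.8 FPKM at day 8 (-0.60 ± 0.16). Lysosomal genes were negative in 21 of 21, did not overlap in 18, had an unadjusted p under 0.05 in 15 and passed in 0, with a median of -0.66. Grn, the lysosomal growth factor progranulin, had 129.9, 96.6 and 132 FPKM at day 15, against 209.7, 295 and 204 FPKM at day 8 (-0.97 ± 0.20).

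Lists for the macrophage states often called M2a, M2b and M2c were read separately. The M2a list (alternative activation by interleukin 4) had a median of -0.64 over 18 tested genes, with 5 wholly lower and 1 wholly higher, beside 16.9% and 9.11% of all tested genes, and 0 passed (1 higher and 7 lower had an unadjusted p under 0.05). Its higher member was Retnla, which encodes a small protein secreted by alternatively activated macrophages, at 19.8, 62.2 and 31.6 FPKM at day 15, against 13.1, 9.98 and 14.7 FPKM at day 8 (1.41 ± 0.40, limma, adjusted p = 0.191). Chil3, a chitinase-like protein shared with neutrophil precursors, went the other way, with 3.86, 0.39 and 1.61 FPKM at day 15, against 11.7, 6.13 and 9.17 FPKM at day 8 (-2.19 ± 0.56). The M2b list had a median of -0.36 over 10 tested genes, and 0 passed (1 higher and 3 lower had an unadjusted p under 0.05). Of the 10, 3 lay wholly lower, beside 16.9% of all tested genes. These 3 were Cd86, a costimulatory ligand, and the Fc gamma receptors Fcgr2b and Fcgr3. Cd86 had 3.82, 3.16 and 4.63 FPKM at day 15, against 6.51, 7.22 and 7.33 FPKM at day 8 (-0.80 ± 0.15), with 5.48, 3 and 3.01 FPKM in aNMP-2a0 hearts. The tested cytokines of the list, Il10 at -0.87, Tnf at -0.16 and Il1b at 0.02, overlapped between groups. Of its cytokines too low to be tested, Il6 and Ccl1 lay wholly below day 8 and Tnfsf14 overlapped. The M2c list, which covers clearance of dead cells, had a median of -0.53 over 22 genes. Of these, 10 lay wholly lower, beside 16.9% of all tested genes, and 0 passed (10 lower had an unadjusted p under 0.05).

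B cell and plasma cell genes were negative in all 10 that were tested of 18 listed. Of the 10, 8 did not overlap, 9 had an unadjusted p under 0.05 and 0 passed in limma. Among all tested genes 16.9% lay wholly lower, and 13.2% were lower at an unadjusted limma p under 0.05. Cd79a, the signalling chain of the B cell receptor, had 3.33, 5.41 and 3.99 FPKM at day 15, against 17.7, 31.2 and 10.6 FPKM at day 8 (-1.99 ± 0.38, limma, adjusted p = 0.178). Jchain, which joins secreted IgA and IgM, had 25.1, 18.5 and 47.6 FPKM at day 15, against 110.3, 116 and 84.8 FPKM at day 8 (-1.85 ± 0.34). Groups stood apart for both, and the list median was -1.71. Ms4a1, which encodes CD20, and Cd22, an inhibitory receptor of B cells, met the expression filter through day 8 alone and had to differ, so these counts and the median do not describe the whole list. Genes of class II presentation, the route to CD4 T cells, were listed together with dendritic cell genes. For the 15 tested, the median was -0.89, 7 had an unadjusted p under 0.05 and 0 passed. Wholly lower were 4 (16.9% of all tested genes were), namely H2-DMb2, Irf8, Ccr7 and Itgax. The other H2 genes of this list and Cd74 overlapped between groups. Ccr7, whose fold change is the median, met the expression filter through day 8 alone and had to differ. The median and the number wholly lower therefore do not describe class II genes as a whole.

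Scar collagens had lower averages at day 15, and 13 of the 14 tested overlapped between groups. Col1a1, the main chain of scar collagen, had 322, 76 and 74 FPKM at day 15, against 438, 640.3 and 298 FPKM at day 8 (-1.84 ± 0.61, limma, adjusted p = 0.216). Col3a1, the collagen of early scar, had 785, 231 and 185 FPKM at day 15, against 878, 1529 and 748 FPKM at day 8 (-1.63 ± 0.57). In each gene aNMP-2ab0 replicate 1 exceeded the lowest day 8 heart, aNMP-2ab replicate 3. All 14 were negative, 8 had an unadjusted p under 0.05, 0 passed, and the median was -1.27. With the 1 library of each group that was low in Myl7, which are these same overlapping libraries, the median was 0.18. Among matricellular proteins, which steer cells without building fibres, Postn had 123, 38.2 and 32.8 FPKM at day 15, against 208, 945 and 136 FPKM at day 8 (-2.47 ± 0.81), and Tnc had 8.53, 1.13 and 0.92 FPKM at day 15, against 23.9, 14.4 and 9.14 FPKM at day 8 (-2.46 ± 0.74). Both were apart between groups, and for Postn aNMP-2ab replicate 2 was several times above the other day 8 hearts. That list had a median of -1.16 over 28 genes (9 wholly lower, beside 16.9% of all tested genes, 11 at an unadjusted p under 0.05, 0 passed), -0.59 without aNMP-2ab replicate 2 and 0.05 in the libraries low in Myl7.

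Myofibroblast and resting fibroblast lists had medians nearer 0. Acta2, smooth muscle actin, had 155, 105 and 46.9 FPKM at day 15, against 115, 140.2 and 39.3 FPKM at day 8 (0.09 ± 0.60), with overlap throughout. Over its 13 tested genes the myofibroblast list had a median of -0.51, with 0 passed (1 higher and 1 lower had an unadjusted p under 0.05), and -0.03 without aNMP-2ab replicate 2. Resting fibroblast genes had a median of -0.21 over 14 genes, with 0 passed and the same counts at an unadjusted p under 0.05, and 0.02 without that library. Cell cycle genes were negative in 27 of 28, 6 lay wholly below day 8, beside 16.9% of all tested genes, 9 had an unadjusted p under 0.05 and 0 passed. Top2a, the topoisomerase of dividing cells, had 3.65, 1.98 and 1.46 FPKM at day 15, against 5.38, 6.7 and 4.17 FPKM at day 8 (-1.10 ± 0.31), and Birc5, survivin, had 6.08, 3.61 and 2.47 FPKM at day 15, against 10.2, 10.2 and 8.36 FPKM at day 8 (-1.22 ± 0.28). Their groups did not overlap. The list median of -0.68 was 0.23 in the libraries low in Myl7.

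Mitochondrial and contractile genes of heart muscle lay on the positive side at day 15. Atp5b, the catalytic subunit of ATP synthase, had 3526, 3609 and 3635 FPKM at day 15, against 2724, 1966 and 2650.0 FPKM at day 8 (0.57 ± 0.16, limma, adjusted p = 0.192). Uqcrc1, a core protein of complex III, had 924, 985 and 872 FPKM at day 15, against 699.8, 434 and 634 FPKM at day 8 (0.68 ± 0.20). Day 15 values lay above all day 8 values, and aNMP-2ab replicate 2 was the lowest heart in both. All 35 genes of the respiratory chain, ATP synthase and citric acid cycle were positive, 31 lay wholly above day 8 (9.11% of all tested genes did so), 28 had an unadjusted p under 0.05 and 0 passed, with a median of 0.54, and 0.35 without aNMP-2ab replicate 2. Fatty acid genes were positive in 30 of 31 and apart in 17, with 8 at an unadjusted p under 0.05, 0 passed and a median of 0.55, which was 0.24 without that library. Acadvl, which opens the oxidation of long-chain fatty acids, had 608, 617 and 560.1 FPKM at day 15, against 450.2, 253 and 456 FPKM at day 8 (0.67 ± 0.24).

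In the sarcomere list 17 of 18 genes were positive, 12 lay wholly above day 8, 13 had an unadjusted p under 0.05 and 0 passed, with a median of 0.48. Over all tested genes, 9.11% lay wholly above day 8 and 5.4% were higher at an unadjusted limma p under 0.05. These shares also stand beside the calcium handling list below. Actn2, the actinin of the Z disc, had 704, 706 and 693 FPKM at day 15, against 573, 464 and 442 FPKM at day 8 (0.52 ± 0.13). Calcium handling genes were positive in 20 of 20 and apart in 7 (7 at an unadjusted p under 0.05, 0 passed), with a median of 0.34. Jph2, which holds the junction between the surface and the calcium store, had 116, 119 and 105 FPKM at day 15, against 82.4, 69.2 and 62.9 FPKM at day 8 (0.67 ± 0.13, limma, adjusted p = 0.179), and 75.3, 131 and 125 FPKM in aNMP-2a0 hearts. The groups stood apart. Genes of wall stress were mixed: Ankrd1, a stretch-responsive nuclear protein, had 643, 516 and 589 FPKM at day 15, against 1023, 2825 and 1391 FPKM at day 8 (-1.45 ± 0.36), without overlap, whereas Nppb, the B-type natriuretic peptide, had 262, 388 and 590.2 FPKM at day 15, against 287, 1225 and 416 FPKM at day 8 (-0.43 ± 0.56), with overlap. Nrap, an actin organizer of the intercalated disc, had 121, 115 and 122 FPKM at day 15, against 80.2, 84.5 and 78.2 FPKM at day 8 (0.56 ± 0.09).

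Endothelial genes lay mostly on the positive side, and Kdr had the highest fold change among them. Kdr, the main receptor for vascular endothelial growth factor, had 77.6, 76 and 66.4 FPKM at day 15, against 41.6, 52 and 43.3 FPKM at day 8 (0.68 ± 0.13, limma, adjusted p = 0.177), and 67.4, 73.1 and 87.5 FPKM in aNMP-2a0 hearts. The aNMP-2ab hearts had the 3 lowest values of the 9. The endothelial list had 20 of 23 positive, where 59.8% of all tested genes were negative. Of its genes 3 lay wholly higher (9.11% of all tested genes did), 2 had an unadjusted p under 0.05 and 0 passed. Its median was 0.16, beside -0.07 over all genes, while Pecam1, a junction protein of all endothelium, was at 0.06 and Cdh5, another, at 0.23. Among ligands, Vegfa had 138, 177 and 191 FPKM at day 15, against 112, 101 and 129 FPKM at day 8 (0.56 ± 0.16), and Angpt2, a destabiliser of vessels, had 3.55, 2.61 and 2.23 FPKM at day 15, against 3.87, 5.5 and 5.46 FPKM at day 8 (-0.73 ± 0.20). Both were apart, in opposite directions. The list of vessel growth signals had a median of 0.12 over 26 genes, 3 wholly higher and 2 wholly lower, beside 9.11% and 16.9% of all tested genes, 0 passed (3 higher and 2 lower at an unadjusted p under 0.05), and -0.04 without aNMP-2ab0 replicate 1.

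Mesothelial genes, which mark the outer lining of the heart, were negative in all 15 tested, with a median of -0.77. Of the 15, 10 did not overlap, 12 had an unadjusted p under 0.05 and 0 passed. Over all tested genes, 16.9% lay wholly lower and 13.2% were lower at an unadjusted limma p under 0.05. Msln, mesothelin, had 30.7, 32.2 and 24.5 FPKM at day 15, against 64.4, 62.5 and 66.2 FPKM at day 8 (-1.14 ± 0.13, limma, adjusted p = 0.0911), and 10.4, 38.6 and 33.6 FPKM in aNMP-2a0 hearts. Upk1b, a tetraspanin of the same lining, had 11.6, 10.8 and 7.95 FPKM at day 15, against 19.7, 20.5 and 19.2 FPKM at day 8 (-0.95 ± 0.15). Each gene was apart between groups, and the list summed to 198, 272 and 168 FPKM at day 15, against 377, 384 and 332 FPKM at day 8. Adipoq, the fat cell hormone adiponectin, had 13.5, 46.4 and 68.1 FPKM at day 15, against 93.6, 108 and 70.7 FPKM at day 8 (-1.34 ± 0.56), and 26.8, 9.33 and 8.15 FPKM in aNMP-2a0 hearts. Its log2 fold change was -0.66 without aNMP-2ab0 replicate 1. The groups stood apart for Adipoq, while every other tested member of the fat cell list overlapped. Among these, Cfd was at -1.37 and Cidec at -1.21, whereas Plin4 was at 0.39 and Scd1 at 0.10. How much outer lining, fat or atrium each piece of tissue held was not recorded in the labels. Between the 1 library of each group that was low in Myl7, with no replicates, list medians were -1.15 for neutrophil granule genes, -0.18 for mature neutrophils, -2.28 for interferon-stimulated genes and -3.53 for interferon gamma genes. In these 2 libraries they were -1.15 for class I presentation, -0.76 for complement, -0.55 for recruited macrophages, -0.30 for lysosomes, -1.04 for B cells and -0.62 for the mesothelial list. On the positive side they were 0.34 for the respiratory chain and citric acid cycle, 0.39 for the sarcomere and 0.15 for fatty acid use.

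**Figure D4:**
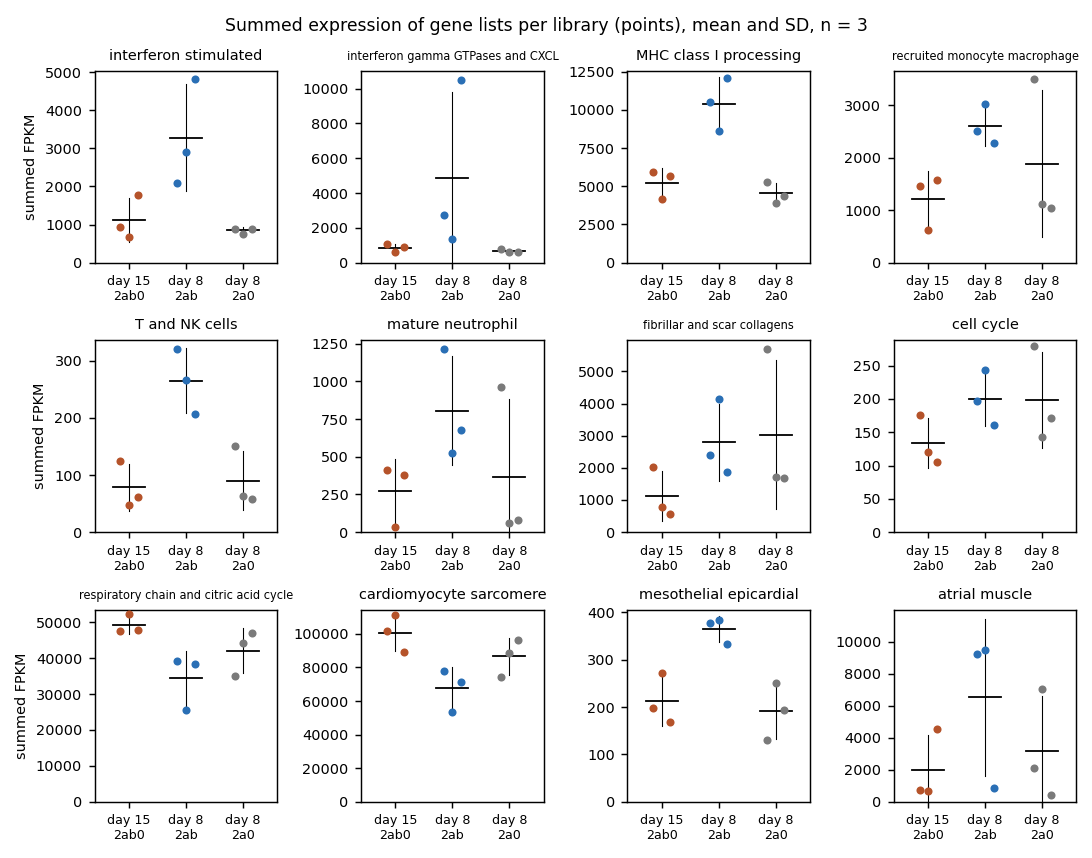
Summed FPKM of the tested and untested members of 12 gene lists in each library of the day 15 group (left), the day 8 aNMP-2ab group (middle) and the day 8 aNMP-2a0 group (right), with mean and SD (n = 3). Class I sums were 5897, 4140 and 5676 FPKM at day 15, against 10480, 8634 and 12110 FPKM in aNMP-2ab hearts, while collagen sums of the groups overlapped. The atrial sums include Nppa.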

How the data were processed

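Values were deposited as FPKM, which the authors computed for 18414 genes per library. The headers do not name the unit. Sums weighted by transcript length varied by 2.11% (coefficient of variation) over the 18 libraries of the series and unweighted sums by 3.81%, the pattern that FPKM give. Per the submitters' processing notes, HISAT2 2.1.0, Bowtie2 2.2.5 and RSEM 1.2.8 were used with build GRCm38.p6, and the role of each tool is not given in the sources used here. Per the labels' protocols, poly(A) RNA was selected with oligo-dT beads and sequenced on DNA nanoballs. The tables of the 2 time points were joined by symbol, with no further scaling.

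The filter was 1 FPKM in 3 or more of the 6 libraries, and log2(FPKM + 0.5) was tested with limma 3.58.1 in R 4.3.3 (trended, robust empirical Bayes, two-sided, Benjamini-Hochberg over all 12607 genes, threshold 0.05). The test was checked on simulated data. The comparison of the day 8 groups was fitted in the same way on its own 6 libraries. The labels do not say that replicates are separate animals, so each p reflects only the spread of these samples. With 3 libraries a group, the smallest exact permutation p is 0.1. Members, gene lists (49 lists, 790 tested genes) and the rule for named genes were chosen with earlier results of these data known. The rule took the 10 genes with the smallest p, because fewer than 5 passed, the 3 members of each list with the smallest p and a set of anchor genes. Other list members are named as examples chosen after their values were seen. Values of 1 gene are not reported here. Gene positions were matched to RefSeq for 18292 genes, by the gene ID deposited with each symbol. Groups were called apart, or wholly above or below, where the ranges of their 3 values did not overlap. Alternatives covered scaling, pseudocount, filter, variance model, a fit of all 18 libraries, a replicate block, atrial signal and leaving out libraries. Figures were drawn with matplotlib 3.10.9.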

Additional observations from a re-analysis of the deposited data

How the results depend on the processing

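Genes lower at day 15 (2 as reported) numbered 0 with a pseudocount of 0.1, with no filter, with the replicate block, with the atrial score as covariate and without libraries of at least 50 FPKM of Myl7 (1 library a group, not a replicated test). They numbered 1 (Gzma) with a filter of 5 FPKM, 4 (also Prf1 and Mpo) with no trend and no robust fit, and 3 (also C2, a complement protease, limma adjusted p = 0.0385) with median ratio scaling. The fit of all 18 libraries called 2 genes, Gzma and Prf1 (adjusted p of 0.0353 each, limma), and Elane was lost at 0.0726. Leaving out 1 library at a time gave 0 to 2, and 2 only without aNMP-2ab0 replicate 1 (Gzma and Prtn3). No gene was called higher under any alternative run. Between the day 8 groups, genes higher (1 as reported) numbered 3 after quantile normalization, 4 with a filter of 5 FPKM, 16 in the fit of all 18 libraries, 0 with the replicate block, 0 without libraries of at least 50 FPKM of Myl7, and 0 to 274 with 1 library left out, and genes lower (0 as reported) numbered 1 in the fit of all 18 libraries and 0 to 3. The replicate numbers showed no sign of pairing the samples: same-numbered deviations correlated at -0.14, 0.0065 and 0.16, and differently numbered ones at -0.15 to 0.18. With 3 libraries a group, this check cannot settle whether the numbers pair samples. Of 3092 values of named genes under alternatives, 0 reversed a called direction, 19 lost a call and 5 gained one. Only Gzma and Elane were called as reported, so only their values could lose a call or reverse one. Some genes that were not called changed sign, such as Acta2, at 0.09 as reported and -0.29 without aNMP-2ab0 replicate 1. Of 931 list medians under alternatives, 40 had the other sign, among them collagens, matricellular proteins and cell cycle without the libraries rich in Myl7. The cause was not tested. Depth is unknown, so low genes such as Elane and Mpo have no counting error attached.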

Other observations

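Clock genes in phase with Per overlapped between groups in 11 of 12 tested genes, and 1 day 15 heart stood out in protein folding genes. Dbp, a clock output factor, had 92.9, 108 and 44.9 FPKM at day 15, against 167, 123 and 49.7 FPKM at day 8. Their median was -0.18, 0 passed in limma and 0 had an unadjusted p under 0.05. Herpud1, part of the degradation of misfolded proteins, had 91, 111 and 522 FPKM at day 15, against 125, 78.6 and 126 FPKM at day 8, and Hspa5, the main chaperone of the endoplasmic reticulum, had 256, 339 and 1097 FPKM at day 15, against 212, 236 and 583 FPKM at day 8. In both genes aNMP-2ab0 replicate 3 was the highest library and the groups overlapped. The unfolded protein response list had a median of 0.05, and -0.37 without that library.

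Some genes outside the rule for named genes were picked after their values were seen. Strit1, a micropeptide that activates the calcium pump of heart muscle, had 104, 132 and 116 FPKM at day 15, against 34.6, 4.52 and 53.9 FPKM at day 8 (2.47 ± 0.83). Bdh1, which oxidises the ketone body beta-hydroxybutyrate, had 27.6, 19.8 and 33.5 FPKM at day 15, against 10.6, 12.1 and 5.09 FPKM at day 8 (1.55 ± 0.34). Both genes were apart between groups and did not pass.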
